A study of Homo sapiens with 6 samples.

Results

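The 10 genes described here encode proteins that anchor microtubule ends at the cell cortex, namely PHLDB1, PHLDB2, CLASP1, CLASP2, ERC1, KANK1, KANK2, PPFIA1, PPFIBP1 and KIF21A. They were taken by symbol from the 63677 Ensembl identifiers of the count tables, and 10 of 10 had a single identifier and passed the filter on low counts. RNA came from SW480 cells, an established human colorectal adenocarcinoma line, transduced with a doxycycline-inducible lentiviral vector for either POU5F1B or, as the control, green fluorescent protein (GFP). POU5F1B is a retrogene copy of POU5F1 (OCT4). Unlike OCT4, the paper reports, its protein was mainly cytoplasmic and enriched in membranes. Chromatin immunoprecipitation in that study did not show significant recruitment of POU5F1B to the genome. There were 3 GFP and 3 POU5F1B libraries, and all were harvested after 72 h in doxycycline at 1 µg/mL, so the inducer was shared by both groups. The methods describe HA-tagged proteins and puromycin selection of the transduced cells. Whether the replicates came from separate transductions or cultures was not given in the sources used here, so any p-value measures the spread between these libraries, which may be technical.

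The list was chosen by function around PHLDB2, which itself was selected on its POU5F1B against GFP difference in these same 6 libraries. The group differences of its members are therefore given as description, and no p-value is given for them. Counts of members past a threshold are printed only beside the share of all tested genes and support nothing, since a call on this contrast restates the selection.

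PHLDB2 (also called LL5-beta) and its paralog PHLDB1 (LL5-alpha) are scaffold proteins with a lipid-binding PH domain. PHLDB2 gathers patches at the basal cortex that surround focal adhesions, and it recruits the CLASP proteins, which hold and stabilize the growing ends of microtubules. ERC1 (ELKS) and the liprins PPFIA1 and PPFIBP1 belong to the same patches, where ERC1 also helps secretory vesicles to dock. The KANK proteins bind talin and so tie the patches to integrin adhesions, and the kinesin KIF21A, which KANK1 binds, restrains microtubule growth there. In epithelial cells this assembly is known for organizing microtubules along the basal membrane and for the turnover of adhesions during migration.

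The libraries held 10767947 to 12787637 counts. POU5F1B had 6, 5 and 1 counts in GFP replicates 1, 2 and 3 and 15027, 11393 and 1458 in POU5F1B replicates 1, 2 and 3, so the third POU5F1B library carried the transgene at a lower level than the other two. No library was a copy of another, since even the closest pair (GFP replicates 1 and 2) differed beyond sampling noise, with chi-square over degrees of freedom at 4.21. In the POU5F1B group, replicates 1 and 2 were also close, at 5.38, and replicate 3 was at 17.5 and 20.9 from them. GFP replicate 3 stood further apart, at 89.5 and 78.7 from GFP replicates 1 and 2. Relative to the mean of those 2 libraries, 12.3% of the 14286 tested genes were more than 2-fold higher in GFP replicate 3 and 9.65% more than 2-fold lower. As a check of the cell type, 7 of 9 colon epithelium markers passed the filter on low counts, while CDX1 and LGALS4 stayed under 10 counts in every library. Of 8 markers of blood, endothelial and mesenchymal cells, 7 were matched and 3 passed the filter. COL3A1 had 0 counts in all 6 libraries, and PTPRC and CD3E had at most 2 and 3.

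The sequences before the transcript starts of the 2 LL5 paralogs are shown first, since PHLDB2 and PHLDB1 parted in these libraries. The RefSeq table (GRCh38.p14) matched 10 of 10 genes and lists 20 starts for them, 4 of which belong to PHLDB2 and 2 to PHLDB1. Only stretches of 250 bases with no annotated untranslated sequence are printed, 5′ to 3′. Capitals mark GC boxes (GGGCGG or CCGCCC) and CCAAT boxes (CCAAT or ATTGG).
PHLDB2, chr3:111732246-111732495, plus strand: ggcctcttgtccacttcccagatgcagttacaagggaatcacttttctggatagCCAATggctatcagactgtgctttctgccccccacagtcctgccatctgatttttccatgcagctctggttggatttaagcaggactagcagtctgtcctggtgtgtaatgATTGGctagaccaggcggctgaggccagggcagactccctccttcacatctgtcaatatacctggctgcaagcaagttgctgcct
PHLDB2, chr3:111858930-111859179, plus strand: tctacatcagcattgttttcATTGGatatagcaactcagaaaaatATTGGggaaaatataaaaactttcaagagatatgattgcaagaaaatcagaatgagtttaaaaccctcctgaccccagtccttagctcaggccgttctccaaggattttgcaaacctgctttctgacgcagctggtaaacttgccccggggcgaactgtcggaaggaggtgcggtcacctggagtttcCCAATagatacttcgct
PHLDB1, chr11:118606186-118606435, plus strand: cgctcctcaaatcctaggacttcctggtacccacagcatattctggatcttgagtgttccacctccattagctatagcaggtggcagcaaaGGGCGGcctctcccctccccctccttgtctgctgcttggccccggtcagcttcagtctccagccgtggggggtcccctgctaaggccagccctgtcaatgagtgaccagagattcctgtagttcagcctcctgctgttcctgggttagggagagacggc
PHLDB1, chr11:118607365-118607614, plus strand: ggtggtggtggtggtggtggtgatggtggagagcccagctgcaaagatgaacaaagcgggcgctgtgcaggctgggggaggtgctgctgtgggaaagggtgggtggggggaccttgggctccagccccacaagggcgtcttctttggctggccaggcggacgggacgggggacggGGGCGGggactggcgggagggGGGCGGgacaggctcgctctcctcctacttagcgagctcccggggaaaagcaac

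The first PHLDB2 window held 2 CCAAT boxes and the second held 3, and neither held a GC box. The other 2 PHLDB2 windows, not printed because they overlap annotated untranslated sequence, held 1 and 2 GC boxes, 1 and 0 CCAAT boxes, and 10 and 27 CpG. The former (chr3:111859015-111859264) shares bases with the second printed window. Its CCAAT box is the last one marked there, and CpG in the shared bases are counted for both. The first and second PHLDB1 windows held 1 and 2 GC boxes and no CCAAT box. A TATA box (TATAAA or TTTATA), not marked in capitals, was in the second PHLDB2 window and in no other window of these paralogs. Across all 35116 windows of this length in the table, 42.64% held a GC box, 32.01% a CCAAT box and 10.72% a TATA box on either strand. The first PHLDB2 window had 1 CpG and the second 7, against 5 and 13 for PHLDB1 and a median of 11 for all windows, so the windows of both genes ranged to either side of that median. The octamer bound by POU factors (ATGCAAAT, or ATTTGCAT on the other strand) was in none of the 20 windows of the 10 genes and in 1.63% of all windows. These matches describe letters, not binding. Gene counts do not show which start was used.

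PHLDB2 was lower in each POU5F1B library than in each GFP library. It lies on chromosome 3 at 111451344 to 111695364 (GRCh37, plus strand). GFP replicates 1, 2 and 3 held 5028, 5481 and 3147 reads of PHLDB2, and POU5F1B replicates 1, 2 and 3 held 1535, 1444 and 1492. Scaled by TMM to library size (CPM, counts-per-million), this was 424, 418 and 274 with GFP against 121, 134 and 124 with POU5F1B. GFP replicates 1 and 2 were thus the highest, GFP replicate 3 lay between them and the POU5F1B libraries, and the groups did not overlap.

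The mean PHLDB2 level was 372 ± 84.8 CPM with GFP against 126 ± 6.79 CPM with POU5F1B (SD, n = 3), 2.94-fold higher with GFP. The log2 fold change fitted by limma voom was -1.53 ± 0.19 (SE), and 211 of the 14286 tested genes (1.48%) had a lower one. A fold change above 2 toward lower levels was found for 1 member, PHLDB2, and 3.68% of tested genes. Between libraries of the same replicate number, the log2 difference was -1.81, -1.64 and -1.14 for replicates 1, 2 and 3. PHLDB2 was more than 2-fold lower in each of these 3 comparisons, as were 0.763% of the tested genes. The 3 POU5F1B libraries had a coefficient of variation of 5.38%, although their POU5F1B counts differed widely, and the GFP libraries one of 22.8%. At the lowest PHLDB2 count, counting error alone was 2.63%.

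**Figure D1:**
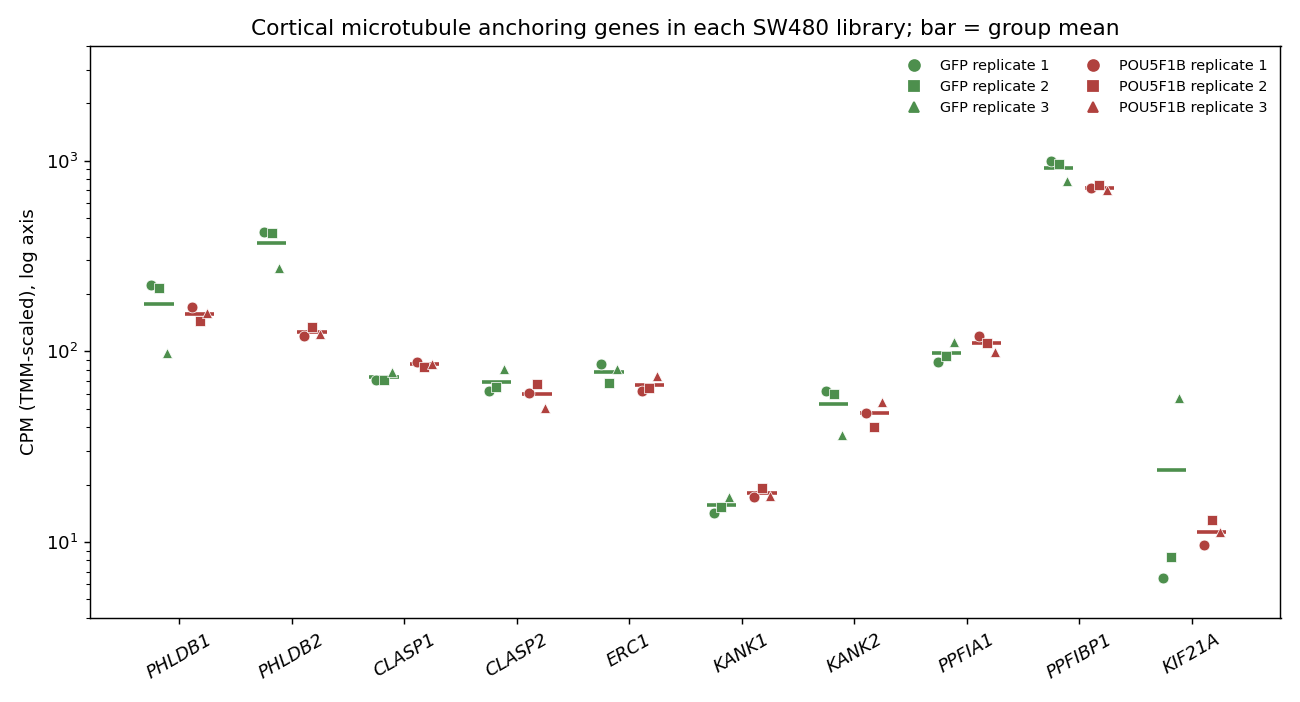
Level of each gene in each library, in TMM-scaled CPM on a log axis; green symbols are GFP libraries, red symbols POU5F1B libraries, and each bar is a group mean (n = 3). The 3 PHLDB2 values of POU5F1B cells, 121 to 134 CPM, lie below the 3 of GFP cells, 274 to 424 CPM, and KIF21A is set apart by GFP replicate 3 alone.

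Other measures moved with the PHLDB2 values, and their part in it was not tested. The summed level of the matched markers of other cell types ranged from 25.5 to 177 CPM in GFP and from 18.3 to 25 CPM in POU5F1B libraries. COL1A1, a fibrillar collagen gene, made up most of it in the GFP libraries, at 142, 118 and 16.9 CPM, and had 6.76, 5.56 and 9.49 CPM in POU5F1B replicates 1 to 3, so its groups did not overlap. The other 2 tested markers of this list overlapped between the groups: PDGFRB, a receptor gene of mesenchymal cells, had 28.2, 28.7 and 7.22 CPM with GFP and 8.73, 7.69 and 12.5 CPM with POU5F1B, and VWF, an endothelial gene, 5.98, 5.18 and 1.13 CPM and 6.37, 4.82 and 2.50 CPM. The summed colon epithelium markers overlapped between the groups (6365 to 9580 CPM with GFP, 7908 to 8930 CPM with POU5F1B). One of them, CDH1, which encodes the epithelial adhesion protein E-cadherin, was higher in each POU5F1B library, at 33.7, 30.2 and 72.7 CPM with GFP and 164, 159 and 98.3 CPM with POU5F1B. The other 6 tested epithelial markers (EPCAM, KRT8, KRT18, KRT19, VIL1 and CDX2) overlapped between the groups, with log2 fold changes from -0.32 for CDX2 to 0.92 for EPCAM. For EPCAM, KRT8, KRT18, KRT19 and VIL1, GFP replicates 1 and 2 were below all POU5F1B libraries, and the overlap came from GFP replicate 3. EPCAM had 86.8, 89.4 and 519 CPM with GFP and 320, 331 and 252 CPM with POU5F1B. VIL1 was also highest in GFP replicate 3, at 211 CPM. For CDX2, POU5F1B replicates 1 and 2 were below all GFP libraries, and the overlap came from POU5F1B replicate 3, at 37 CPM. PLCXD2, a gene on the same strand whose exons share 322 bases with those of PHLDB2, had 90, 70 and 45 counts in GFP and 40, 28 and 39 in POU5F1B libraries, far below PHLDB2 itself. The shared bases are 2.62% of the exon sequence annotated for PHLDB2.

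A gene was called where its change exceeded 2-fold with a Benjamini-Hochberg adjusted p below 0.05. This was met by 0 of the 10 members with limma voom and by 0% of all tested genes. The paper, which also used limma voom, reports enough genes higher with POU5F1B in SW480 cells for an enrichment analysis of functional terms. That result was not reproduced with the limma voom fit used here, and the reason for the difference was not tested. At an unadjusted p under 0.05 there were 2 members, both lower, and 11.9% of tested genes, 5.82% lower and 6.07% higher. The quasi-likelihood test of edgeR also called 0 members and 0% of genes. DESeq2 called 1 member, PHLDB2, and 1.62% of tested genes, 1.04% lower and 0.581% higher. PHLDB2 was also the single member called in 3 other settings. Since PHLDB2 was selected on this contrast in these libraries, these calls restate the selection and support nothing. With sample quality weights 7.54% of tested genes were called, 4.4% lower and 3.14% higher. Restricting the fit to replicates 1 and 2 gave 8.36%, 5.15% lower and 3.21% higher. Leaving out GFP replicate 3 gave 4.16%, 2.78% lower and 1.39% higher. These 3 fits drop or downweight GFP replicate 3, so their GFP spread rests mostly on replicates 1 and 2, the closest pair of libraries. The PHLDB2 value itself stayed between -1.75 and -1.36 on the log2 scale in all 17 alternative settings.

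**Figure D2:**
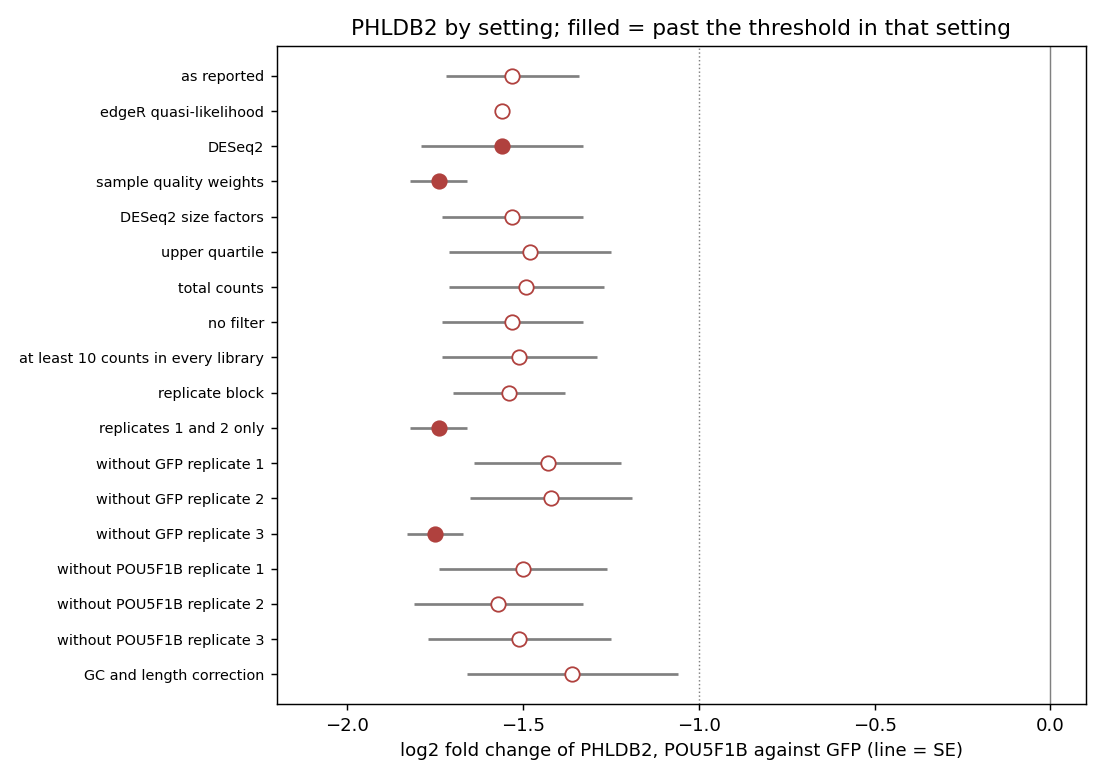
Log2 fold change of PHLDB2 (POU5F1B against GFP) in the analysis as reported and in 17 alternative settings; lines are standard errors (edgeR gives none), the dotted line marks a 2-fold decrease, and filled circles mark settings in which PHLDB2 was past the threshold. All values lie between -1.75 and -1.36, and 4 settings are filled. A filled circle restates the selection of PHLDB2 on this contrast.

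PHLDB1, the other LL5 scaffold, did not show this separation. It lies on chromosome 11 at 118477155 to 118528741 (plus strand) and had 222, 215 and 98 CPM in GFP and 170, 144 and 158 CPM in POU5F1B replicates 1, 2 and 3. GFP replicate 3 was the lowest of all 6 libraries and GFP replicates 1 and 2 the highest, so the groups overlapped. The mean was 178 ± 69.7 CPM with GFP against 157 ± 12.9 CPM with POU5F1B (SD, n = 3), with a log2 fold change of -0.09 ± 0.31 (SE). It was -0.49 without GFP replicate 3.

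The ratio of both paralogs within a library does not depend on scaling between libraries. It does not remove effects of GC content, which was 43.1% for PHLDB2 and 60.7% for PHLDB1. Since PHLDB2 was selected on this contrast, the ratio is given as description. There were more PHLDB2 than PHLDB1 counts in the 3 GFP libraries, with log2 ratios of 0.93, 0.96 and 1.48, and fewer in the 3 POU5F1B libraries, with -0.50, -0.11 and -0.34. The mean log2 ratio was 1.12 ± 0.31 in GFP and -0.32 ± 0.19 in POU5F1B cells (SD, n = 3), a difference of -1.44. Per length of the canonical transcript, PHLDB2 was at 1.72, 1.75 and 2.52 times the PHLDB1 level in GFP and at 0.639, 0.835 and 0.711 times in POU5F1B cells. Per length, the more abundant LL5 paralog was thus PHLDB2 in every GFP library and PHLDB1 in every POU5F1B library. The difference of the log2 ratio was -1.54 to -1.26 when single libraries were left out and -1.25 with replicates 1 and 2 only.

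The CLASP genes, which encode the proteins that PHLDB2 brings to the cortex, differed little. CLASP1 (chromosome 2, 122095352 to 122407052, minus strand) had 70.6, 70.8 and 77.7 CPM in GFP and 87.5, 82.8 and 85.9 CPM in POU5F1B replicates 1 to 3. Its POU5F1B libraries were all above its GFP libraries, by 1.17-fold on the mean, with a log2 fold change of 0.23 ± 0.11 (SE). CLASP2 (chromosome 3, 33537737 to 33759848, minus strand) had 61.8, 65.1 and 80.8 CPM in GFP and 60.2, 67.6 and 50.7 CPM in POU5F1B libraries. These groups overlapped, the highest and the lowest value both came from replicate 3 libraries, and the log2 fold change was -0.22 ± 0.17 (SE).

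The log2 ratio of CLASP1 to CLASP2 counts was 0.19, 0.12 and -0.06 in GFP and 0.54, 0.29 and 0.76 in POU5F1B replicates 1 to 3. These groups did not overlap either, with means of 0.09 ± 0.13 and 0.53 ± 0.23 (SD, n = 3). With replicates 1 and 2 only, the difference of 0.45 was 0.26.

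**Figure D3:**
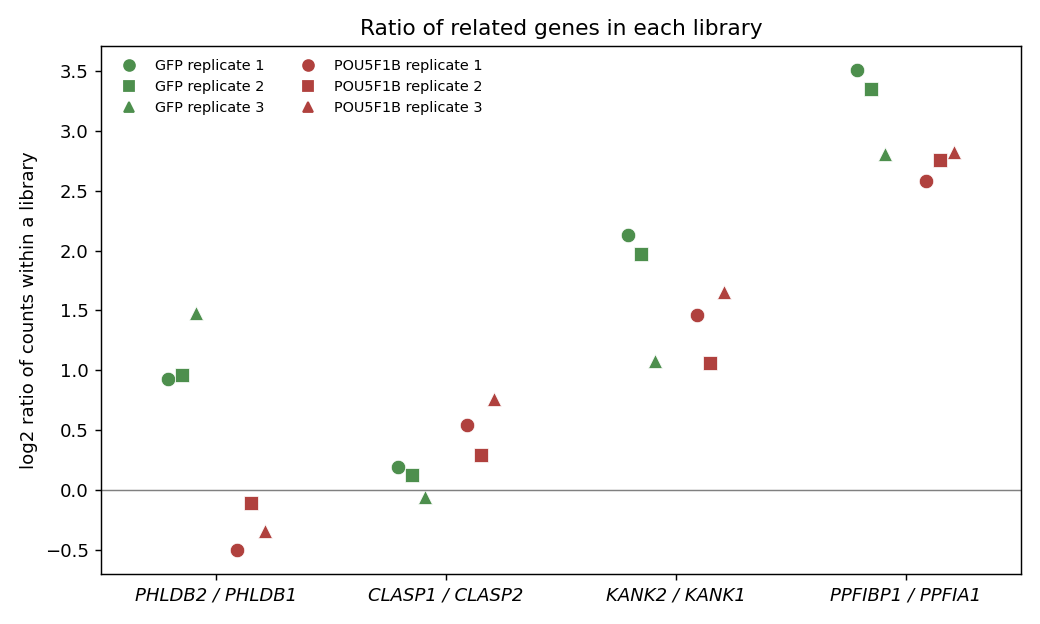
Log2 ratio of the counts of related genes within each library (green GFP, red POU5F1B, symbol by replicate number); 0 means equal counts. PHLDB2 to PHLDB1 lies between 0.93 and 1.48 in GFP and between -0.50 and -0.11 in POU5F1B libraries, while KANK2 to KANK1 and PPFIBP1 to PPFIA1 overlap between the groups.

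Among the genes for patch scaffolds, ERC1 (chromosome 12, 1099675 to 1605099, plus strand) had 86.3, 68.4 and 80.7 CPM in GFP and 61.9, 63.9 and 74.1 CPM in POU5F1B replicates 1 to 3. POU5F1B replicate 3 lay above GFP replicate 2, and the log2 fold change was -0.23 ± 0.14 (SE). PPFIBP1, which encodes liprin-beta-1, was the most abundant member (chromosome 12, 27676364 to 27848497, plus strand). It had 1001, 962 and 781 CPM in GFP and 720, 750 and 701 CPM in POU5F1B libraries.

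All 3 PPFIBP1 values of POU5F1B cells were below those of GFP cells, with means of 723 ± 24.3 and 915 ± 118 CPM (SD, n = 3). This is a 1.26-fold difference, with a log2 fold change of -0.33 ± 0.12 (SE), and -0.15 after a correction for GC content and length chosen after the data had been seen. PPFIA1, which encodes liprin-alpha-1 (chromosome 11, 70116796 to 70231418, plus strand), had 87.6, 94.6 and 112 CPM in GFP and 120, 110 and 99.3 CPM in POU5F1B libraries. Its groups overlapped, and the log2 fold change was 0.17 ± 0.14 (SE). The log2 ratio of PPFIBP1 to PPFIA1 counts was 3.22 ± 0.37 in GFP and 2.72 ± 0.12 in POU5F1B cells (SD, n = 3), and the lowest GFP value, 2.81, fell within the POU5F1B range.

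Of the KANK genes, KANK1 (chromosome 9, 470291 to 746105, plus strand) was low in both groups. It had 14.2, 15.3 and 17.2 CPM in GFP and 17.2, 19.3 and 17.4 CPM in POU5F1B libraries, with a log2 fold change of 0.21 ± 0.16 (SE). KANK2 (chromosome 19, 11274946 to 11308467, minus strand) had 62.3, 59.8 and 36.5 CPM in GFP and 47.4, 40.2 and 54.5 CPM in POU5F1B libraries. As with PHLDB1, GFP replicate 3 was the lowest library and GFP replicates 1 and 2 the highest. The log2 fold change of KANK2 was -0.13 ± 0.24 (SE), and it was -0.38 without GFP replicate 3.

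KIF21A (chromosome 12, 39687030 to 39837192, minus strand) rested on 1 library. It had 6.49 and 8.30 CPM in GFP replicates 1 and 2 but 57.1 CPM in GFP replicate 3, against 9.67, 13 and 11.3 CPM in POU5F1B replicates 1 to 3. GFP replicate 3 was 7.72-fold above the mean of the other GFP libraries, and GFP replicates 1 and 2 lay below all POU5F1B libraries. The log2 fold change was therefore -0.35 ± 0.80 (SE) with all libraries and 0.59 without GFP replicate 3, in the opposite direction.

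**Figure D4:**
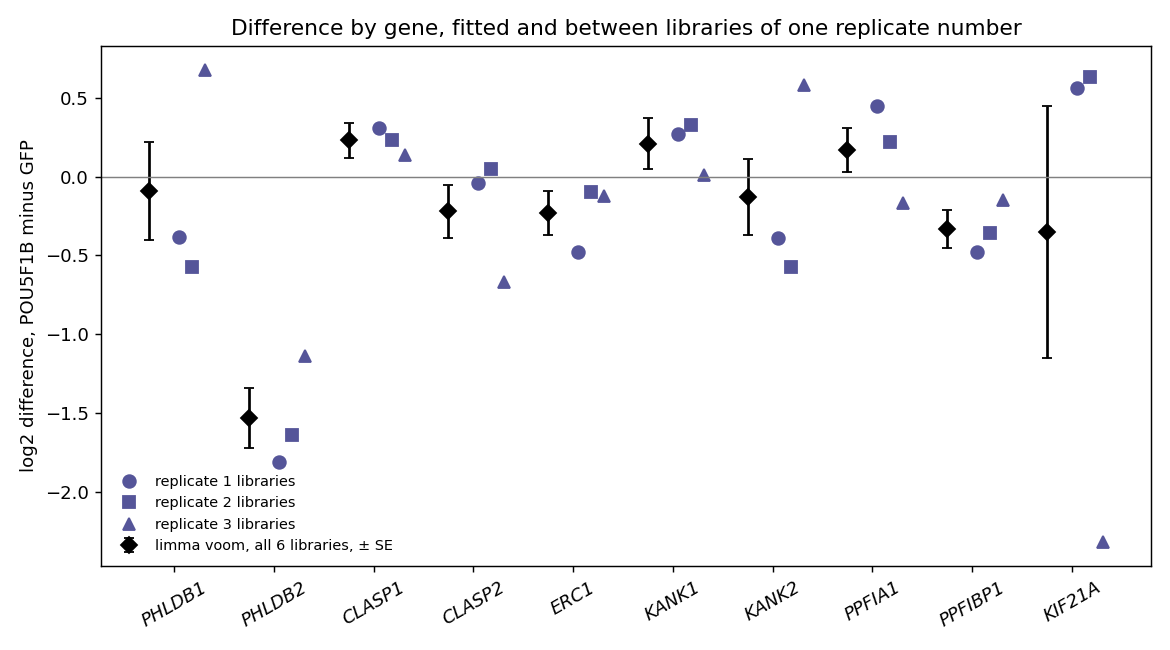
Log2 difference, POU5F1B minus GFP, for each gene; black diamonds are the limma voom fit over all 6 libraries with its standard error, and blue symbols are the differences between the libraries of one replicate number. PHLDB2 lies at or below -1.14 in all comparisons, whereas KIF21A goes from 0.56 and 0.63 to -2.32.

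Per length of the canonical transcript, the order of the members differed between the groups. In GFP cells the length-scaled level (RPKM, CPM per kilobase of transcript) was 153 ± 19.7 for PPFIBP1, 61.5 ± 14 for PHLDB2, 32.8 ± 12.8 for PHLDB1 and 18.7 ± 2.36 for PPFIA1 (SD, n = 3). In POU5F1B cells PPFIBP1 had 121 ± 4.07 RPKM, PHLDB1 28.9 ± 2.37, PPFIA1 21.0 ± 1.98 and PHLDB2 20.9 ± 1.12, so PHLDB2 went from the second to the fourth place, where it did not differ from PPFIA1 beyond the spread. The middle of the order was close in both groups, with KANK2, CLASP2, CLASP1 and ERC1 at 8.43 to 10.2 RPKM in GFP and at 7.16 to 10.5 RPKM in POU5F1B cells. KANK1 and KIF21A were lowest, at 3.08 ± 0.299 and 3.76 ± 4.50 RPKM in GFP and 3.54 ± 0.225 and 1.78 ± 0.259 RPKM in POU5F1B cells.

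As a group, the members showed no common direction. The groups did not overlap for 3 of the 10 members, PHLDB2 and PPFIBP1 lower and CLASP1 higher in POU5F1B cells, where 19.4% of all tested genes did not overlap (9.24% lower and 10.2% higher). The sign was the same in the 3 comparisons of equal replicate number for 5 members and for 36.7% of tested genes, with 3 members lower (17.8% of tested genes) and 2 higher (19%). The median log2 fold change of the members was -0.18 and that of all tested genes -0.02. A lower value in POU5F1B cells was found for 7 of 10 members and 53.1% of tested genes. A share of the members near that of all genes is no result about them.

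The spread among GFP libraries followed GC content in part. The median log2 difference of GFP replicate 3 from GFP replicates 1 and 2 was 0.70 in the lowest and -0.25 in the highest of 5 equal bins of tested genes by GC content of the canonical transcript. KIF21A, with 40.7% GC, was 2.93 higher, and PHLDB1 and KANK2, with 60.7% and 57.9% GC, were 1.16 and 0.74 lower in that library. PHLDB2, with 43.1% GC, had a difference of -0.62, within 1 SD of its bin (median 0.22, SD 0.88). The trend of POU5F1B replicate 3 against POU5F1B replicates 1 and 2 was smaller and opposite, with medians of -0.19 in the lowest and 0.18 in the highest bin. Differences between the replicate 3 libraries thus carry both trends. With GC content and length corrected, the log2 fold change of PHLDB2 was -1.36. The part of RNA quality or library preparation in the state of GFP replicate 3 was not tested.

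**Figure D5:**
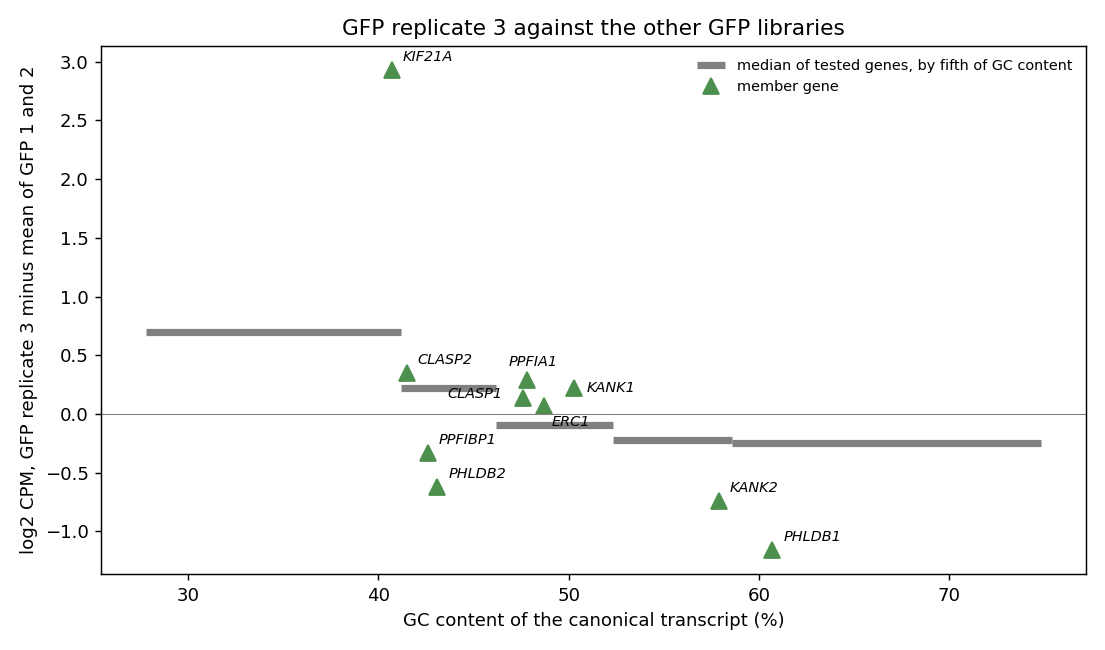
Difference of GFP replicate 3 from the mean of GFP replicates 1 and 2 in log2 CPM, against the GC content of the canonical transcript in percent; triangles are the 10 genes and grey bars the median of each of 5 equal bins of tested genes. The bars go from 0.70 at low to -0.25 at high GC content, with KIF21A far above and PHLDB2 below the bar of its bin.

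The wider machinery was examined through 40 companion genes. They were listed by known function and not for how they moved, though with earlier results of these data known. The classes were paralogs of the members, proteins that track microtubule plus ends, focal adhesion proteins and factors for vesicle delivery, with 1 further class not broken out. Of the 40 companions, 37 could be tested, and 0 rose and 0 fell past the threshold with limma voom, as with edgeR and DESeq2. At an unadjusted p under 0.05 there were 2, both higher in POU5F1B cells, against 11.9% of all tested genes. Their median log2 fold change was -0.13, with 23 of 37 below 0. The smallest adjusted p from limma voom was 0.327 among the 6 tested paralogs, 0.394 among the 11 plus-end tracking genes, 0.44 among the 8 focal adhesion genes and 0.888 among the 4 vesicle genes. The untested paralogs were KANK3, KANK4 and PPFIA2, and PPFIA2 had 0 counts in all 6 libraries.

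The groups did not overlap for 3 of the 37 companions (chosen after their values were seen), all higher in POU5F1B cells, against 10.2% of tested genes in that direction. KIF21B, the paralog of the kinesin KIF21A, had 6.15, 8.30 and 13.7 CPM in GFP and 18, 14.6 and 17.5 CPM in POU5F1B replicates 1 to 3, which fitted as 0.91 ± 0.30 on the log2 scale (SE; adjusted p = 0.327 by limma voom). MAPRE1, which encodes the plus-end tracking protein EB1, was 0.23 ± 0.09 higher on the log2 scale (SE; adjusted p = 0.394 by limma voom). PXN, which encodes the focal adhesion protein paxillin, was 0.20 ± 0.12 higher (SE; adjusted p = 0.561 by limma voom). Of the 2 talin genes, TLN1 averaged 376 ± 116 CPM with GFP against 362 ± 20.1 CPM with POU5F1B (SD, n = 3). TLN2 averaged 10.9 ± 2.38 CPM with GFP against 7.35 ± 1.66 CPM with POU5F1B (SD, n = 3). Its groups overlapped, with a log2 fold change of -0.57 ± 0.26 (SE; adjusted p = 0.44 by limma voom).

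The genes most like PHLDB2 across the 6 libraries were found from the root mean square difference of log2 CPM, each gene centred on its own mean. The 5 nearest were SMIM10 (0.139), FEZ2 (0.181), NRXN2 (0.189), DCLK1 (0.192) and FAM171B (0.223). DCLK1, which encodes a microtubule-associated kinase, had 5113, 6238 and 3118 counts in GFP and 1472, 1441 and 2111 in POU5F1B replicates 1 to 3. NRXN2 rests on 5 to 24 counts per library. Among the members, PPFIBP1 was nearest to PHLDB2 at 0.608 and KIF21A farthest at 1.324, so no other member had the PHLDB2 pattern at the same size.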

How the data were processed

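RNA was sequenced from 6 SW480 libraries, 3 with GFP and 3 with POU5F1B, grouped and numbered by their titles. The authors deposited whole-number read counts per Ensembl gene, 1 table per library and not normalized. Per the study's methods, reads were mapped to hg19 with hisat2 and uniquely mapped reads were counted with featureCounts over genes and transposable elements. The strand setting and annotation release were not given in the sources used here, so reads of PHLDB1, CLASP1, ERC1, KANK1 and PPFIA1, each with a partner on the opposite strand, may include some of that partner, and a few reads could move between paralogs. The opposite-strand partners held at most 61 counts in a library (NIFK-AS1, opposite CLASP1), and the KANK1 partner held 0 in each. The deposited tables carry no other unit.

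A symbol was found for 87.4% of the identifiers. filterByExpr of edgeR 4.0.16 left 14286 genes for testing, and TMM set the effective library sizes. Groups were compared by limma voom (limma 3.58.1, R 4.3.3), which the study's methods also name. No replicate block was used here, and p-values were adjusted by Benjamini-Hochberg across the whole tested table. CPM are on TMM-scaled sizes, with a prior count of 2 before taking log2. A floor of 3 counts was 0.229 to 0.278 CPM, which covers counting error only. Alternatives were the quasi-likelihood test of edgeR, DESeq2 1.42.0, sample quality weights, 3 other scalings, 2 other filters, a replicate block and libraries left out. A GC and length correction (splines with 5 degrees of freedom, values known for 97.3% of tested genes) was added after the data had been seen. The tests were also run on simulated counts, and the outcome is not reported here. A class of companion genes is not reported here on its own. Transcript lengths, GC content and coordinates are from GENCODE on GRCh37, which is hg19, and promoters from RefSeq on GRCh38.p14. The members, lists and naming rule (all members, called companions, the 5 genes most like PHLDB2) were chosen with earlier results of these data known.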

Additional observations from a re-analysis of the deposited data

How the results depend on the processing

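PHLDB2 was lower with POU5F1B in all 17 alternatives, by less than 1 SD from the reported value in each. Its log2 fold change was -1.56 with edgeR and with DESeq2, -1.48 with upper quartile scaling, -1.74 with replicates 1 and 2 only, and -1.75 to -1.42 with single libraries left out. The replicate numbers were not taken to pair the libraries: the deviations of same-numbered libraries from their group means correlated across genes with r = 0.242, 0.0883 and 0.165, and the labels name no shared batch. With the replicate block, PHLDB2 had -1.54, and 1 gene of all tested passed the threshold, with 0 members and 0 companions.

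The count of genes past the threshold was 0 as reported (1698 at an unadjusted p under 0.05), and also with edgeR, the stricter filter, the GC and length correction and each of the 3 other scalings. It was 232 with DESeq2, 1077 with sample quality weights (weight of GFP replicate 3 0.111, others 0.575 to 2.79), 1194 with replicates 1 and 2 only, 4 with no filter, and 0 to 595 with single libraries left out, the highest without GFP replicate 3; the next, 5, came without POU5F1B replicate 3. Members past the threshold numbered 1 (PHLDB2) under DESeq2, under quality weights and in the first 2 replicates alone, and 0 to 1 with single libraries left out. Calls of PHLDB2 restate its selection on this contrast. Companions numbered 1 (KIF21B, higher) with quality weights, 2 (KIF21B, and PPFIA4, lower) with replicates 1 and 2 only, and 0 to 1 with single libraries left out. The cause of these changes was not tested.

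Of 153 values of the other members, 145 kept their sign and 5 moved by over 1 SD. The sign was kept throughout by 5 of these 9 members. It was not by PHLDB1 (-0.49 to 0.11), CLASP2 (-0.31 to 0.02) and KIF21A (-1.08 to 0.59). KANK2 (-0.49 to 0) was counted with them because it rounded to 0 without GFP replicate 1 and without GFP replicate 2. It was above 0 in no setting after rounding. Counting error limits KIF21A most, at 11.4% for its lowest count of 77.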

Other observations

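Of the 37 tested companions, 6 were more than 2-fold higher in GFP replicate 3 than in GFP replicates 1 and 2 and 5 more than 2-fold lower, where 12.3% and 9.65% of all tested genes were (those given here were named after their values were seen). The higher genes included APC and DST, which encode large proteins that link microtubule ends to other structures. APC had 8.51, 15.3 and 60.2 CPM in GFP and 7.86, 11.9 and 8.33 CPM in POU5F1B replicates 1 to 3. DST had 9.18, 13.1 and 55.9 CPM in GFP and 11.2, 13.9 and 7.33 CPM in POU5F1B libraries. By GC content of the canonical transcript, APC (39.6%) lies in the lowest of 5 equal bins of tested genes, and DST (41.6%) in bin 2 with CLIP1 (44.4%) and MAPRE2 (44.2%), which were also higher. In the same bin 2, ERC2 (43.4%) and PRICKLE1 (45.5%) were lower, by log2 differences of -1.08 and -2.95.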
